A study of Mus musculus with 7 samples.

Results

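Proximal mesenchyme of the second pharyngeal arch (PA2) at E10.5 was taken as the mesenchymal neural crest-derived cells (NCCs) in which Hoxa2 was detected and the genes that mark the neighbouring mesenchyme were not. A cell was included if it held at least 1000 detected genes, at most 10% mitochondrial UMIs (a UMI, or unique molecular identifier, counts 1 captured mRNA molecule), at least 1 UMI of Hoxa2 and at least 2 UMIs of the mesenchymal genes Twist1, Prrx1 and Prrx2 together. It also had to hold 0 UMIs of 8 other genes, namely Hoxa3, Hoxb3 and Hoxd3 of the caudal arches, Sox10 of glial and migratory crest, and Foxf1, Emx2, Gsc and Hand2 of other arch mesenchyme. This gave 1463 cells among 17527 mesenchymal cells, 39401 barcodes of the 4 libraries at this stage and 65862 barcodes of all 7 libraries in the series.

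PA2 is filled by crest from the hindbrain, and its cells form the stapes, the styloid process and the lesser horn of the hyoid bone. Hoxa2 is the selector gene of this arch, and without it PA2 takes on the pattern of the first arch, whose crest carries no Hox gene. Along the proximodistal axis, endothelin, BMP and Dlx genes set distal and intermediate domains, marked by Hand2 and by Dlx5 and Dlx6, while genes such as Pou3f3 belong to the proximal part of the arch.

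The control group held 2 libraries of genotype Wnt1-Cre/+;ROSA-EGFPf/+, from arches 2 to 6 with the heart. The other group held 2 libraries titled Tbx1 null, from tissue below arch 1 with the heart, although their genotype label reads Wnt1-Cre/+;Tbx1+/-;ROSA-EGFPf/+. The study itself describes these embryos as Tbx1-/-. For both groups it lists the pharyngeal region without the first arch, the heart and the neural tube as the tissue taken. Tbx1 encodes a T-box transcription factor of the pharyngeal endoderm and mesoderm, and the Tbx1 allele in these embryos is not limited to the Cre lineage. All libraries came from E10.5 embryos of a mixed Swiss-Webster background (labelled Swiss-Webster), each a pool of 2 or more embryos, and EGFP-positive live cells were sorted before droplet RNA sequencing. Wnt1-Cre drives EGFP in the crest and also in some neural cells. Null replicate 1 was made with version 3 of the kit and the other 3 libraries with version 3.1. The study lists the embryos of null replicate 1 at fewer somites, a younger stage, than those of the other 3 libraries. Kit and stage of that library cannot be told apart.

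Libraries held between 146254671 and 197398510 UMIs over all barcodes, and the selected cells held 6053903 and 11092012 UMIs in the controls and 9609758 and 2422339 in the nulls. Their number was 283 and 675 in control replicates 1 and 2, and 389 and 116 in null replicates 1 and 2. The median depth per selected cell was 21743 and 15775 UMIs in the controls and 24320 and 19151.5 in the nulls. Null replicate 2 stands apart in what follows, with the fewest cells and the highest levels of neural and smooth muscle genes. Any pair of libraries shared between 17 and 39 barcodes among all their barcodes. Below, 4 values in a row are always in the order control 1, control 2, null 1, null 2, and levels are in CPM, the UMIs of a gene per 1000000 UMIs of the cells summed.

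The cells were led by Cyp26a1, which encodes an enzyme that degrades retinoic acid, and by Pax9, a paired-box factor of pharyngeal endoderm and arch mesenchyme. Cyp26a1 stood at 52.7, 64.4, 61.1 and 56.1 CPM in the selected cells and at 7.57, 10.3, 6.47 and 5.61 in the 16064 other mesenchymal cells, a median ratio of 8.11 over the 4 libraries. Pax9 stood at 35.0, 35.1, 26.8 and 34.7 CPM, against 6.13, 7.69, 10.6 and 5.29 in the others, a median ratio of 5.11. For both genes every library of selected cells was above every library of other mesenchyme. Since the selection used the same cells, these ratios describe the cells and carry no test.

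The 2 remaining markers were less particular. Hoxa2, which the rule required, stood at 129, 135, 156 and 113 CPM in the selected cells and at 78.7, 70.5, 83.0 and 70.5 in the other mesenchyme. Lhx8, a LIM homeobox gene of palate and tooth mesenchyme, stood at 38.7, 17.0, 46.9 and 14.4 CPM against 15, 12.7, 24.0 and 5.69. Lhx8 was thus higher within every library, but its level in the selected cells of control 2 and null 2 lay below that of other mesenchyme in null 1.

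The promoters of the 3 markers that the rule did not use are shown because Cyp26a1 is a textbook retinoic acid target. They are RefSeq windows from 250 bases before to 50 bases after the start on GRCm38.p6, at chr19:37697558-37697857 on the plus strand for Cyp26a1, chr12:56695221-56695520 on the plus strand for Pax9 and chr3:154330511-154330810 on the minus strand for Lhx8. Capitals mark the hexamers AGTTCA or AGGTCA, the core of retinoic acid response elements, found on either strand.
Cyp26a1: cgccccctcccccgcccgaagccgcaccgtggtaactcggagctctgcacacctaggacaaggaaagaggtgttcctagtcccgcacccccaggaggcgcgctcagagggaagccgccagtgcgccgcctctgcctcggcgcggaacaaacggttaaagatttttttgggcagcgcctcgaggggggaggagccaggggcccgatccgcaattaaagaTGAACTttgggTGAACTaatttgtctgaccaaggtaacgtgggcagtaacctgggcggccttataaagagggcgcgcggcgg
Pax9: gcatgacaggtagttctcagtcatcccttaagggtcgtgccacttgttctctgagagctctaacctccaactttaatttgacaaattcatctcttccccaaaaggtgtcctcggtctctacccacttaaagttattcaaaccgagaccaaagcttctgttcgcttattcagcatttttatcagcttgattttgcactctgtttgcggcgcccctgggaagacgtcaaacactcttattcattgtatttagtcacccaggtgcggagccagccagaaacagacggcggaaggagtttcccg
Lhx8: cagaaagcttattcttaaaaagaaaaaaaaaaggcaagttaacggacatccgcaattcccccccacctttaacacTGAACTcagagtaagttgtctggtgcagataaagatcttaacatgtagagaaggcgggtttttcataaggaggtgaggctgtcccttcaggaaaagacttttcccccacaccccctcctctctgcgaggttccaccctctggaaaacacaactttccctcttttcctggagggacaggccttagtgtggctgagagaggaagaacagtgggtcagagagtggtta
The Cyp26a1 window held 2 of these hexamers, 5 bases apart on the reverse strand as TGAACT in direct repeat, the Lhx8 window held 1 and the Pax9 window 0. The Pax9 window lies inside the gene as annotated on mm10 (chr12:56691767-56712822, plus strand). The bases before that annotated start are not shown. Of 32851 promoter windows of this length, 27.7% held at least 1 hexamer, 0.0396% held a pair 5 bases apart in 1 orientation and 0.0244% held such a pair in which both hexamers were AGTTCA. A match describes the letters of the window and nothing of binding in these cells.

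Other mesenchyme was then divided by the genes of the rule, to see which cells were most like the selected ones, each cell being counted once, first by Hox group 3, then Emx2, then Gsc or Hand2. The 854 cells that met every other condition but had 0 UMIs of Hoxa2 held Cyp26a1 at 61.4, 44.3, 38.8 and 31.8 CPM, and Pax9 at 7.79, 23.5, 13.9 and 18.3. Their Cyp26a1 was above the selected cells in control 1 and below them in control 2, null 1 and null 2. The median depth of these cells was 12633, 12704, 19351 and 16499 UMIs, below the selected cells in each library. Whether Hoxa2 was missed in some of them at that depth was not tested. Cells with a Hox group 3 gene (8238) held Cyp26a1 at 2.74 to 4.74 CPM, and cells with Gsc or Hand2 (4566) at 3.0 to 7.27. Cells with Emx2 (2111) held Cyp26a1 at 18.8 and 21.5 CPM in the controls.

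Lhx8 did not follow these lines. It reached 29.9 and 22.4 CPM in the Emx2 cells of the controls, 15.7, 15.4, 22.2 and 5.34 in the Hox group 3 cells and 4.42, 3.34, 26.0 and 4.78 in the Gsc or Hand2 cells, and stood at 7.35, 9.73, 12.7 and 7.70 in the Hoxa2-negative counterparts. Lhx8 in the selected cells was therefore not above the Emx2 cells in control 2. In the null libraries 8 and 1 cells were in the Emx2 group, too few for a level.

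**Figure D1:**
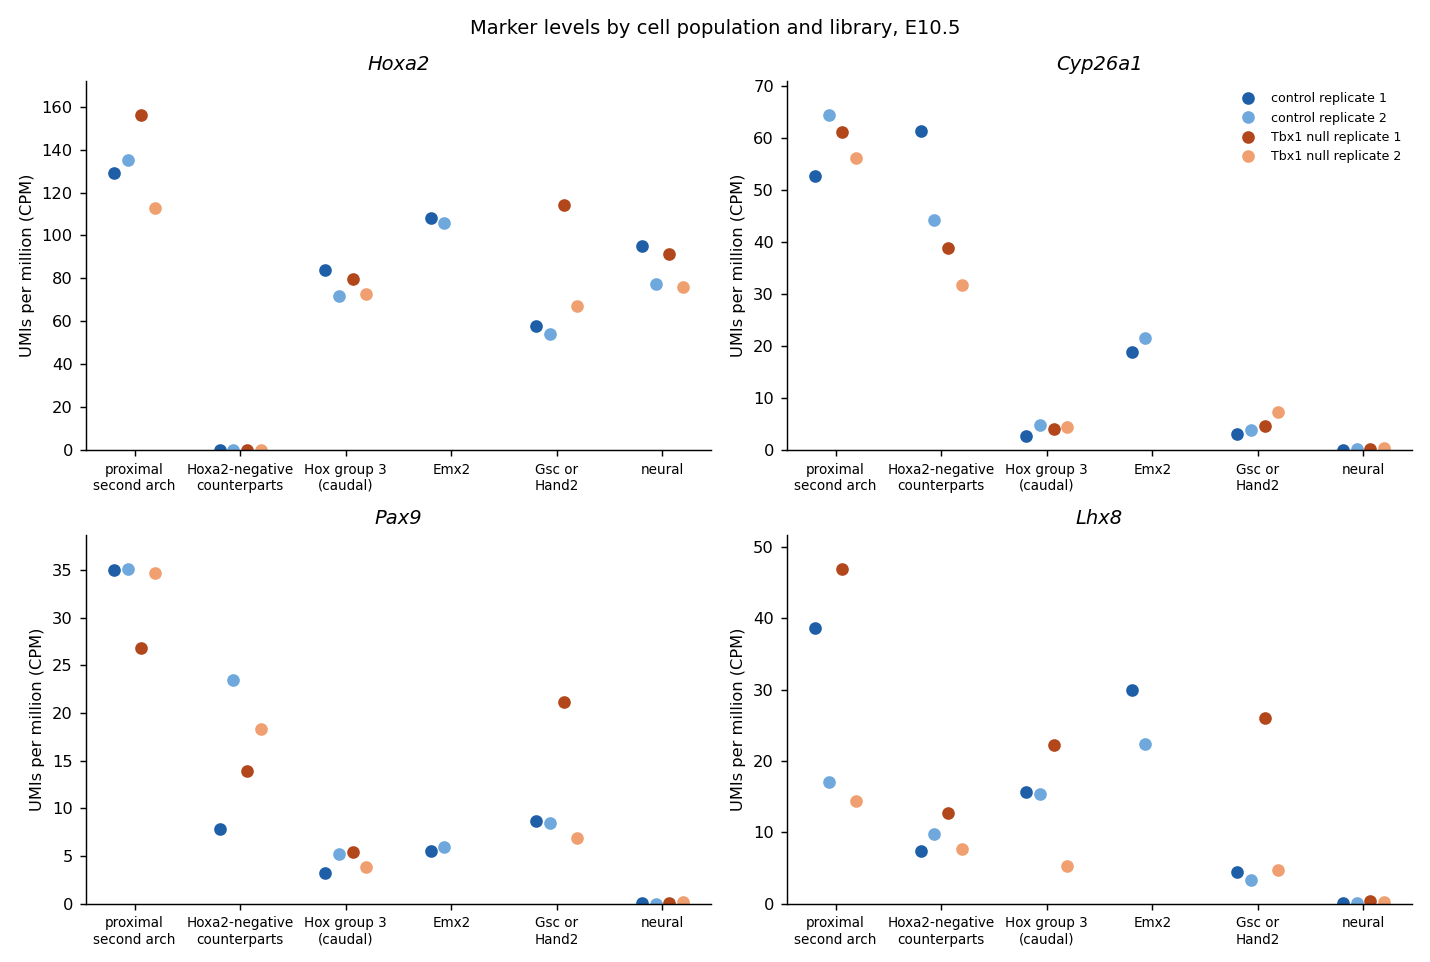
Level (CPM, on linear axes from 0) of 4 markers in 6 cell populations at E10.5, 1 point per library. Cyp26a1 lay between 52.7 and 64.4 CPM in the selected cells and under 11 in the pooled other mesenchyme, while its Hoxa2-negative counterparts reached 61.4.

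Leaving out the 12 genes of the rule, 4978 genes had at least 20 CPM in the selected cells of all 4 libraries. Of these, 792 were above the other mesenchyme in each library, 4 by over 2-fold (Cyp26a1, Pax9, Ebf2 and Tmem37). Ebf2, a helix-loop-helix factor of mesenchymal progenitors, followed Pax9, with 59.3, 90.3, 76.3 and 112 CPM against 24.8, 26.7, 22.7 and 36.1. Its relative Ebf1 stood at 130, 144, 113 and 177 CPM against 63.3, 77.8, 51.3 and 114. Both were above the other mesenchyme in every library, with median log2 ratios of 1.69 and 0.96. Ebf2 was not particular to the selected cells, at 54.1, 70.3, 62.9 and 53.9 CPM in the Hoxa2-negative counterparts and 70.9, 103, 58.3 and 79.5 in the neural cells, which were above the selected cells in both controls. Nor was Ebf1, at 188, 365, 153 and 287 CPM in the neural cells, above the selected cells in every library. The Emx2 cells of the controls held Ebf1 at 120 and 149 CPM.

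Other genes were among the 15 with the highest ratio in the library nearest 0. Pou3f3, the POU factor of the proximal arch, stood at 84.4, 89.3, 58.7 and 59.0 CPM against 35.9, 44.3, 21.4 and 35.0. Arid3b, which encodes a DNA-binding protein, Ldb2, which encodes a cofactor of LIM-domain proteins, and Sobp were higher by median log2 ratios of 0.95, 0.79 and 0.69.

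The set also held Vcam1, a cell adhesion molecule (55.0, 63.3, 94.9 and 112 CPM against 28.2, 30.8, 47.9 and 33.6), Tmem37 (median log2 ratio 1.49), the Wnt receptor gene Fzd4 (0.83), the lipid phosphatase gene Plpp3 (0.79) and Hoxaas2 (0.62). Hoxaas2 is an antisense transcript of the HoxA cluster, so its reads may not be separable from those of its neighbours. Other groups of cells held some of these genes at a like or higher level. The Emx2 cells of the controls held Pou3f3 at 92.2 and 136 CPM and Fzd4 at 58.2 and 60.1, against 48.6 and 53.9 for Fzd4 in the selected cells. The Hoxa2-negative counterparts held Tmem37 at 37.2, 32.3, 67.4 and 35.6 CPM, against 32.9, 45.3, 55.9 and 68.9 in the selected cells, and Ldb2 at 30.3, 28.8, 61.1 and 35.6, against 28.7, 33.6, 45.5 and 62.7.

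On the low side, with the rule genes again left out, 811 of 5116 genes with at least 20 CPM in the other mesenchyme were below it in each library, 11 by over 2-fold. The lowest was Hand2os1, the transcript beside Hand2, at 1.65, 3.07, 0.624 and 0.826 CPM against 65.5, 78.4, 44.4 and 33.2. Hoxb4 stood at 4.29, 5.59, 2.91 and 22.7 CPM against 32.1, 24.0, 37.3 and 107, and Hoxd4 at 9.58, 7.75, 3.43 and 19.4 against 50.2, 27.1, 53.5 and 97.2. These 3 lie beside genes that the rule excluded (Hand2, Hoxb3 and Hoxd3), and the part of the selection in their level was not tested.

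A second set of low genes was neuronal: Stmn2, Nefm, Tubb3 and Dpysl3, with median log2 ratios of -3.18, -2.84, -1.69 and -1.84. They were not absent, with Tubb3 at 51.0, 19.1, 50.2 and 129 CPM in the selected cells against 119, 55.6, 180 and 646. Tfap2b, an AP-2 factor that is also high in the neural cells here, stood at 4.13, 4.60, 2.19 and 9.91 CPM against 22.4, 22.3, 47.8 and 93.0.

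The third set of low genes was mesenchymal. The imprinted genes Plagl1, a zinc-finger factor, and Dlk1, a Notch-related ligand, stood at 8.92, 7.93, 9.47 and 16.9 CPM and at 38.3, 30.8, 99.2 and 49.5, against 62.6, 75.8, 28.5 and 62.1 and 200, 168, 207 and 99.5 in the other mesenchyme. Mef2c, a MADS-box factor downstream of endothelin signalling in the arches, had a median log2 ratio of -1.77. Tshz1, Tshz2, Epha3 and Itm2a had ratios between -1.31 and -1.23.

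The bounds of the rule mattered at the mesenchymal end. The 27, 25, 29 and 16 selected cells with just 2 UMIs of Twist1, Prrx1 and Prrx2 held Cyp26a1 at 2.4, 3.51, 0 and 0 CPM but Hoxb2, which hindbrain cells also express, at 278, 80.7, 348 and 130. Cells just outside, with 1 UMI, were alike, with Cyp26a1 at 0, 7.69, 0 and 0 CPM and Hoxb2 at 230, 138, 357 and 132. At the Hoxa2 bound the cells with 1 UMI held Cyp26a1 at 36.5, 60.2, 56.2 and 60.5 CPM, and those with 2 or more at 61.0, 67.3, 62.2 and 53.0. Cells kept out by 1 UMI of an excluded gene held it at 18.9, 21.5, 34.2 and 37.7 CPM.

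Markers of other cell types were present to a degree that differed between libraries. The summed level of 10 neural markers was 232, 72.9, 220 and 454 CPM in the selected cells and 295, 139, 382 and 930 in the other mesenchyme. For 9 glial and migratory crest markers it was 186, 57.0, 164 and 177 CPM, and for 6 smooth muscle markers 39.8, 50.8, 34.7 and 207. The 7 endothelial, 11 blood, 11 mesoderm and muscle and 7 epithelial markers summed to at most 9.91, 9.91, 23.5 and 50.0 CPM, with Cdh5, Tie1, Myf5, Myod1, Tlx1, Cdh1 and Nkx2-1 at 0 in all 4 libraries and 5 of the 11 blood markers at 0 as well. Control 2 was thus lowest and null 2 highest for neural genes, and the smooth muscle sum was highest in null 2, where Tagln stood highest too (13.7, 21.6, 13.1 and 100 CPM).

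The selected cells were not uniform. To compare cells at 1 depth, each was thinned to 5000 UMIs, which left out 20, 14, 3 and 1 shallower cells. Cyp26a1 was then found in 13.7%, 18.5%, 16.8% and 20% of cells (25.8%, 32.1%, 32.9% and 35.3% before thinning), against 0% to 0.149% of neural cells, which should lack it and whose median depth was 15180, 9718, 16265 and 14981 UMIs. Pax9 was found in 9.51%, 13.3%, 11.7% and 9.57% (22.6%, 23.6%, 26.0% and 25% before), and in 0 thinned neural cells of any library. That allows up to 0.204% of them to hold a UMI at this depth and sets no limit on the cells that express the gene, since neural cells before thinning held it at 0.120, 0, 0.0994 and 0.211 CPM. For each gene the 95% exact binomial (Clopper-Pearson) intervals of the 4 libraries overlapped, from 9.77% to 28.5% in all for Cyp26a1 and from 4.87% to 16.5% for Pax9.

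Other genes varied more. Barx1, a homeobox gene of arch mesenchyme that forms cartilage and teeth, was found in 30.8%, 25.7%, 18.1% and 6.09% of thinned cells, and Lhx8 in 12.9%, 4.24%, 14.8% and 2.61%. Dlx5 was found in 15.6%, 14.2%, 2.59% and 0.870% and Dlx6 in 10.3%, 6.81%, 1.04% and 0.870%, against at most 0.271% of neural cells for either. The 2 null libraries were below both controls for Barx1, Dlx5 and Dlx6, and Lhx8 was low in control 2 and null 2. Before thinning the shares were 43.8%, 39.0%, 31.9% and 15.5% for Barx1, 27.9%, 28.7%, 6.94% and 2.59% for Dlx5, 19.8%, 18.4%, 5.14% and 0.862% for Dlx6 and 21.9%, 11%, 30.1% and 7.76% for Lhx8.

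Six2, a progenitor factor, was found in 2.66%, 2.72%, 4.92% and 9.57% of thinned cells, Tbx2 in 10.6%, 9.53%, 14.5% and 12.2% and Meox1 in 3.04%, 2.87%, 0.777% and 1.74%. Pou3f3 was found in 33.1%, 32.2%, 24.1% and 27.0%, but neural cells, which express this gene themselves, held it at 34.6%, 30.4%, 24.7% and 29.4%.

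Which genes shared a cell was counted for the 45 pairs of these 10 genes, against the number expected from the 2 shares in each library. Dlx5 and Cyp26a1 shared 5 cells where 24.8 were expected. The controls account for this, with 1 cell against 5.61 expected and 4 against 17.3, since the nulls had few Dlx5 cells and 1.68 and 0.200 were expected there. Dlx5 and Dlx6, neighbours on chromosome 6, shared 38 cells where 10.7 were expected, and Dlx5 and Barx1 69 where 38.7 were expected. Cyp26a1 was found less often than expected with Barx1 (29 against 55.7) and with Tbx2 (14 against 27.7), and more often with Pou3f3 (93 against 73.1). Pou3f3 was not particular to the cells with Cyp26a1, since it shared 51 cells with Lhx8 where 34.7 were expected. With Pax9, Tbx2 and Barx1 it shared 55, 54 and 97 cells against 50.4, 46.8 and 100.

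A second grouping joined Lhx8, Tbx2, Barx1 and Pax9. Lhx8 and Tbx2 shared 44 cells where 14.9 were expected, Lhx8 and Barx1 69 where 28.2 were expected, Barx1 and Tbx2 72 against 35.9, Pax9 and Lhx8 27 against 13.9, Pax9 and Tbx2 32 against 18.9, and Pax9 and Barx1 56 against 39.1. All 6 pairs were above expectation in control 1, control 2 and null 1. In control 2 the excess was slight for Pax9 and Barx1 (24 against 22.6) and for Pax9 and Lhx8 (5 against 3.73). In null 2, where 0.183 to 1.34 cells were expected for each pair, the numbers were too small to show a direction. Cyp26a1 shared with Pax9 25 cells where 29.4 were expected and with Lhx8 20 where 20 were expected, so neither pair departed clearly. These counts are of thinned cells, summed over 4 libraries, and no test was made of them.

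Levels of the other genes were taken in the same cells split by the same detection of Dlx5, so they restate these counts on the CPM scale. In the 41 and 94 such cells of the controls and the 10 of null 1, Cyp26a1 stood at 3.54, 9.09 and 3.53 CPM, against 61.5, 75.2 and 62.9 in the cells without Dlx5 of the same libraries. Barx1 stood at 428, 432 and 452 CPM against 187, 159 and 83.7, and Pou3f3 at 35.4, 29.0 and 14.1 against 91.9, 101 and 60.1. Null 2 had 1 such cell and is left out.

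In the 34, 28 and 57 cells with Lhx8 of control 1, control 2 and null 1, Tbx2 stood at 109, 69.6 and 89.8 CPM and Barx1 at 376, 332 and 218. Pax9 stood at 75.0, 61.6 and 43.8 CPM in these cells. In the cells with Cyp26a1 the level of Dlx5 was 2.10, 10.5 and 1.30 CPM in control 1, control 2 and null 1, against 51.5, 56.7 and 10.5 in the cells without it.

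**Figure D2:**
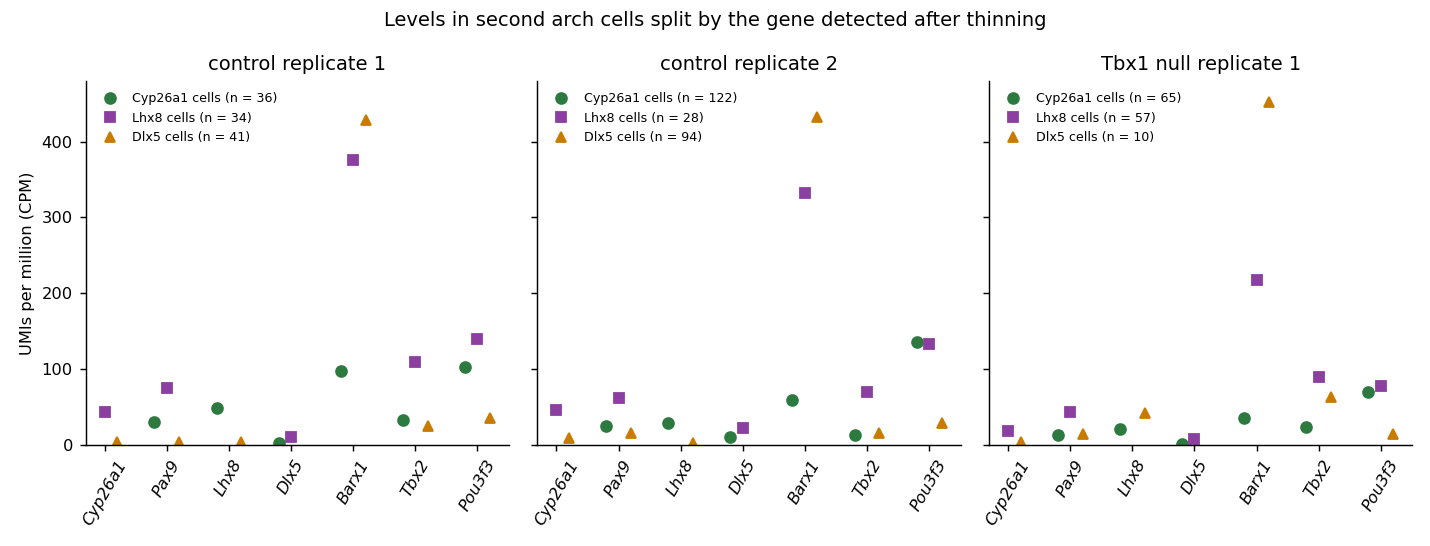
Levels (CPM) of named genes in the selected cells of 3 libraries, split by the gene found after thinning, 1 point per gene and group of cells, with the number of cells in the legends. Cells with Dlx5 held Barx1 at 428 to 452 CPM and almost no Cyp26a1, and cells with Lhx8 held Tbx2 at 69.6 to 109 CPM.

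The share of the selected cells among mesenchymal cells was 7.53% (exact binomial 95% interval 6.70% to 8.42%) and 8.85% (8.22% to 9.51%) in the controls, and 10.7% (9.70% to 11.7%) and 4.64% (3.85% to 5.54%) in the nulls. The 2 nulls lay on either side of both controls, and the means were 8.19% and 7.66%. The intervals cover counting error only. Thinned to 5000 UMIs the shares were 12%, 10.9%, 16.8% and 10.9%.

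Part of what surrounded the selected cells did differ in share. Among mesenchymal cells with Hoxa2 and no UMI of the Hox group 3 genes or Sox10, 21.4% and 22.8% were selected in the controls and 45.6% and 46.6% in the nulls. Of all mesenchymal cells 20.1% and 24.5% carried Emx2 in the controls and 0.550% and 0.680% in the nulls, 29.4% and 29.7% against 10.2% and 12.9% carried Gsc, and 42.3% and 44.0% against 33.9% and 29.6% carried Hand2. Foxf1 did not follow, carried by 17.0% and 12.6% in the controls and 16.9% and 15.6% in the nulls, so that the genotypes overlapped. Since these genes belong to the rule, the shares are a description. The dissected tissue was labelled differently in the 2 genotypes, but the study lists pharyngeal region without the first arch, heart and neural tube for both. Any difference in the dissection itself cannot be told apart from genotype.

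To ask how loss of Tbx1 altered the selected cells, their UMIs were summed per library and compared between 2 null and 2 control libraries with edgeR's quasi-likelihood test. Tbx1 itself was near its floor in these crest cells, at 2.81, 2.98, 3.64 and 1.65 CPM, so it does not check the labels. The 4 rule genes that the selected cells carry, and the 8 they lack, are not reported as results. Of the markers, Cyp26a1 (log2 fold change -0.08 ± 0.23 SE), Pax9 (-0.30 ± 0.23) and Lhx8 (0.17 ± 0.53) did not pass, with adjusted p of 0.925, 0.692 and 0.933.

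Of 11958 genes tested, 7 fell in the nulls (0.0585%) and 0 rose (0%) at an adjusted p under 0.05. At an unadjusted p under 0.05, 662 were higher and 458 lower, and DESeq2 called 13 higher and 36 lower. These counts rest on single libraries: they became 133 higher and 97 lower without control 1, 15 and 37 without control 2, 6 and 12 without null 1, and 3 and 26 without null 2. In bulk sums, fewer cells expressing a gene and less RNA in each cannot be told apart, and p-values measure the spread between these pools of embryos. With 1 library left out, 1 genotype holds a single library, and the spread comes from the other genotype alone. Calls and p-values of such fits, here and below, therefore add no support for a change.

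Hmx1, a homeobox gene of craniofacial mesenchyme and of the developing ear (chr5:35389108-35399730 on mm10), stood at 193 and 185 CPM in the controls and at 19.1 and 31.0 in the nulls, a log2 fold change of -3.05 ± 0.28 (SE, edgeR adjusted p = 0.0158). The genotypes did not overlap, and the call held in all 14 alternatives. In the other mesenchyme Hmx1 stood at 113, 84.8, 10.9 and 58.5 CPM, where null 2 was closer to the controls.

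3110099E03Rik, a long non-coding RNA gene at chr2:115493513-115527744, was almost lost. It stood at 39.3 and 58.9 CPM in the controls and at 0.208 and 0 in the nulls, from 238, 653, 2 and 0 UMIs, a pooled ratio of 313 (95% counting interval 86.3 to 2585; edgeR adjusted p = 0.00248). Other mesenchyme held it at 36.7, 44.0, 0.261 and 0.274 CPM, with the same divide between genotypes. Lypd1, a GPI-anchored modulator of nicotinic receptors at chr1:125867622-125913101, stood at 22.8, 22.2, 0.208 and 1.24 CPM, a pooled ratio of 53.9 (22.9 to 167; edgeR adjusted p = 0.0158), and at 22.3, 13.5, 4.59 and 2.24 in the other mesenchyme. The Lypd1 call was lost with thinned cells (log2 fold change -2.0, edgeR adjusted p = 0.142) and with the Foxf1, Emx2, Gsc and Hand2 cells let in (-2.24, edgeR adjusted p = 0.291).

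Enpp2, which encodes autotaxin, the enzyme that makes lysophosphatidic acid, stood at 27.1, 36.2, 4.68 and 4.95 CPM (chr15:54838901-54952892; log2 fold change -2.80 ± 0.29 SE, edgeR adjusted p = 0.0221). Smoc1, an extracellular BMP antagonist, stood at 10.4, 13.5, 1.14 and 1.24 CPM (-3.41 ± 0.41 SE, edgeR adjusted p = 0.0399), below the 20 CPM that the naming rule asked for. Both were lower in the nulls of the other mesenchyme too, at 26.1, 22.0, 5.89 and 7.95 CPM and at 13.7, 16.1, 1.21 and 2.77. Without null 1 their edgeR adjusted p was 0.0802 and 0.115. Smoc1 also lost its call with at least 2 UMIs of Hoxa2 (0.0911) and with at most 5% mitochondrial UMIs (0.0513).

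The last 2 calls concern sequence close to ribosomal RNA. AY036118 stood at 165, 113, 7.08 and 16.9 CPM (log2 fold change -3.76 ± 0.41 SE, edgeR adjusted p = 0.0270) and Lars2, a mitochondrial leucyl-tRNA synthetase gene whose locus catches mitochondrial rRNA-like reads, at 107, 214, 18.1 and 17.8 (-3.25 ± 0.37 SE, edgeR adjusted p = 0.0326, and 0.0946 without null 1). Gm42418, which also overlaps ribosomal RNA, stood at 2855, 5234, 169 and 454 CPM in the selected cells and at 2730, 4751, 179 and 513 in the other mesenchyme. The part of ribosomal RNA carry-over in these 2 calls was not tested, and both are uncertain.

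**Figure D3:**
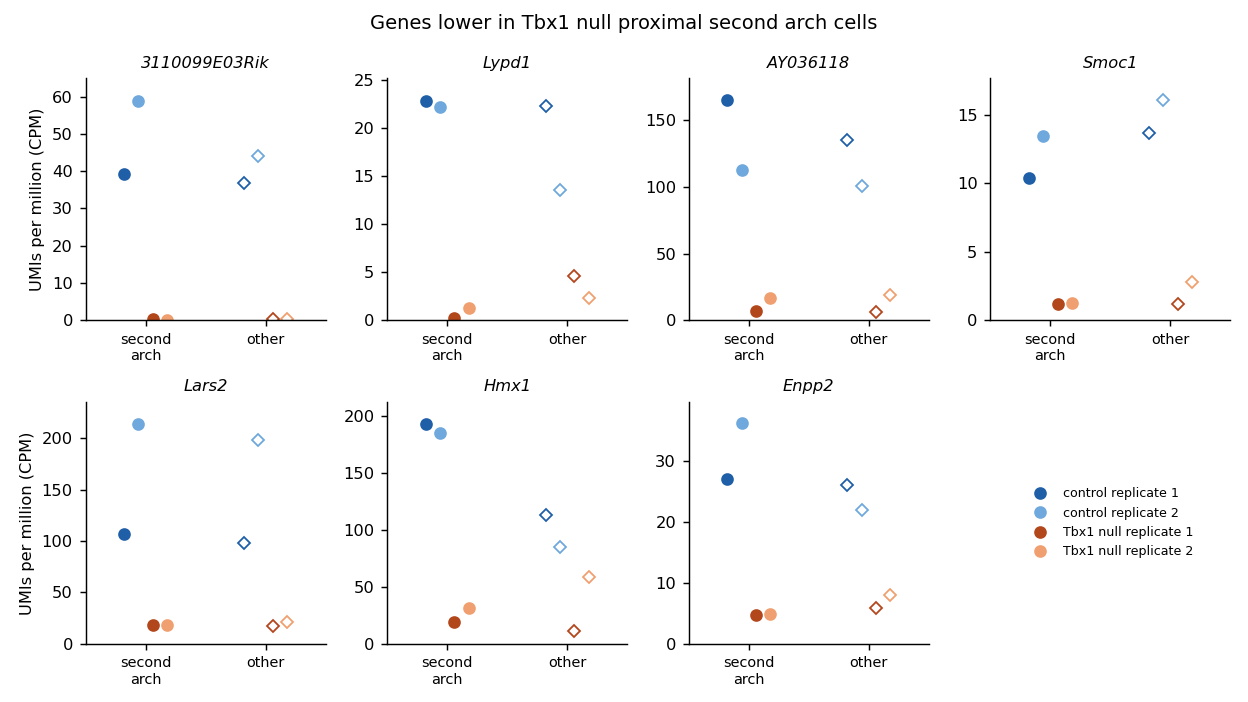
Levels (CPM, linear axes from 0) of the genes that fell in the nulls, in the selected PA2 cells (filled circles) and the other mesenchyme (open diamonds), 1 point per library. In the selected cells Hmx1 lay at 185 and 193 CPM in the controls and at 19.1 and 31.0 in the nulls.

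Levels of sex-linked genes differed between libraries. Xist stood at 210, 421, 601 and 773 CPM and the Y-linked Ddx3y at 21.0, 18.3, 6.24 and 0, so that null 2 was listed at 0 for all 4 Y-linked genes measured and the mix of embryo sexes differed between pools. None of these 5 genes passed the test, with edgeR adjusted p between 0.362 and 0.519, although 2 passed without control 1 (1.80% of all tested genes did), 3 without control 2 (0.430%), 1 without null 1 (0.149%) and 0 without null 2. Their part in the calls was not tested.

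The Dlx genes encode the homeodomain factors that set proximodistal identity in the arches. None of the 7 tested passed, but 6 of them had both nulls below both controls, where 14.3% of all tested genes did, and their median log2 fold change was -2.95, against 0.03 over all genes. Dlx5 stood at 43.4 and 48.2 CPM in the controls and at 9.05 and 2.06 in the nulls (log2 fold change -2.86 ± 0.45 SE, edgeR adjusted p = 0.124). Its neighbour Dlx6 stood at 17.0, 21.0, 3.54 and 0.413 CPM and the antisense transcript Dlx6os1 at 25.6, 40.4, 3.85 and 0, with edgeR adjusted p of 0.197 and 0.169. Dlx6os1 overlaps Dlx6, so their reads may not be separable.

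The pair Dlx3 and Dlx4, whose arch domains lie more distally, had the same pattern. Dlx3 stood at 17.0, 26.5, 3.23 and 0 CPM (edgeR adjusted p = 0.224) and Dlx4 at 7.76, 9.29, 0.416 and 0, a pooled ratio of 26.3 (95% counting interval 10.1 to 97.8; edgeR adjusted p = 0.0540). Dlx1 and Dlx2, expressed along the whole arch, differed less, at 51.2, 68.9, 44.5 and 21.1 CPM and at 65.9, 65.4, 100.0 and 30.1. Their log2 fold changes were -0.90 ± 0.36 and -0.04 ± 0.47 (SE).

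The Dlx calls depended on the analysis. Dlx5, Dlx6 and Dlx4 passed with DESeq2 (adjusted p of 3.29e-07, 2.22e-04 and 6.44e-04), where Dlx3 and Dlx6os1 did not (0.862 and 0.809). Fits with 1 library left out hold a single library of 1 genotype and add no support, so their effect sizes alone are given. The median log2 fold change of the tested Dlx genes was -3.38 without control 1, -2.82 without control 2, -5.94 without null 1 and -2.68 without null 2. With the Foxf1, Emx2, Gsc and Hand2 cells let in, the log2 fold change of Dlx5 was -1.55 (edgeR adjusted p = 0.474), and over all 14 alternatives it lay between -4.60 and -1.29.

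**Figure D4:**
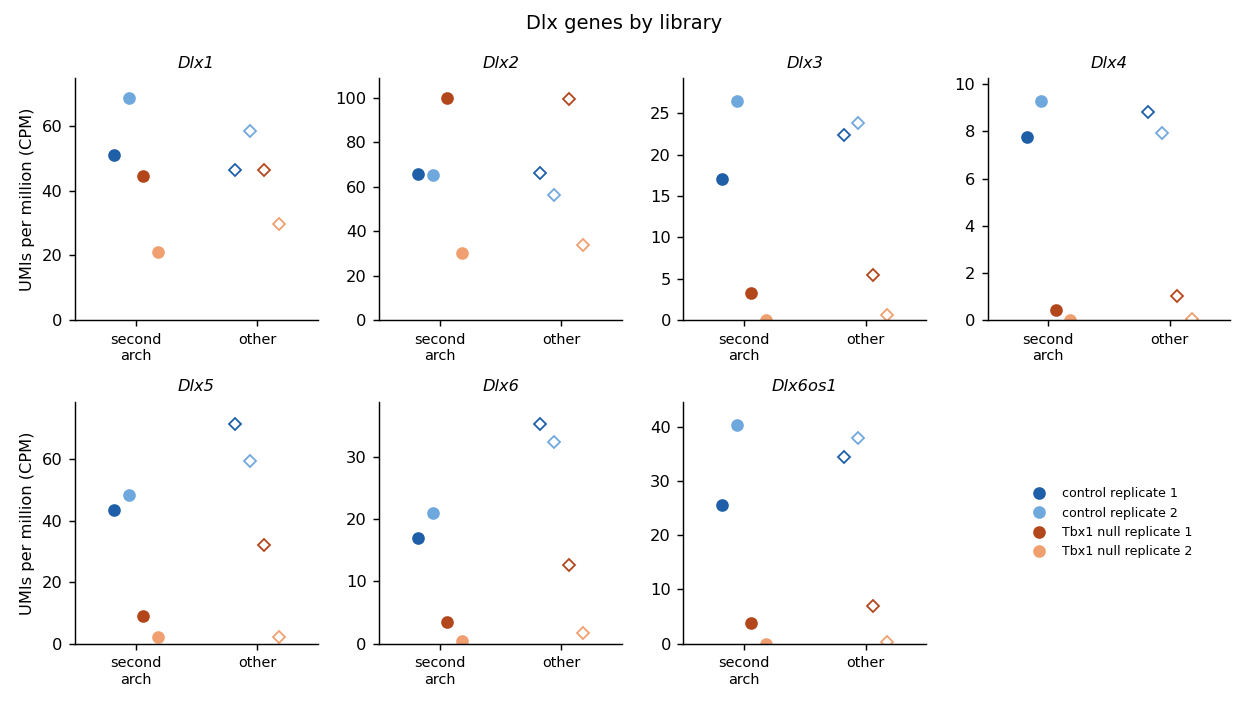
Levels (CPM, linear axes from 0) of the Dlx genes in the selected PA2 cells (filled circles) and the other mesenchyme (open diamonds), 1 point per library. Dlx5, Dlx6, Dlx3, Dlx4 and Dlx6os1 were below both controls in both nulls in the selected cells, and Dlx2 of null 1 was above them.

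Genes that pattern PA2 or the proximal arch did not move together. Of 48 tested in a list of 51, 0 passed, with a median log2 fold change of 0.05. Of these, 13 had both nulls above both controls and 9 both below, where 28.1% and 14.3% of all tested genes did. Meis2 and Nr2f1, the members with the highest level, stood at 516, 782, 466 and 637 CPM and at 628, 628, 696 and 777. Other members, named after their values were seen, lay apart: Barx1 at 221, 202, 94.8 and 20.2 CPM (log2 fold change -1.88 ± 0.56, edgeR adjusted p = 0.417), Pou3f3 -0.65 ± 0.22 (0.441), Irx3 at 6.28, 6.31, 16.6 and 34.7 CPM (1.87 ± 0.36, adjusted p = 0.229), Six2 at 6.28, 5.68, 10.2 and 21.5 CPM (1.24 ± 0.38, adjusted p = 0.425) and Shox2, a homeobox gene of limb and palate mesenchyme, at 6.61, 12.8, 1.56 and 1.65 (-2.69 ± 0.48, adjusted p = 0.197). Without control 1, 6 of the list passed, where 1.80% of all tested genes did, and without control 2 or without null 1, 2 passed (0.430% and 0.149% of all tested genes).

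Caudal Hox genes were low in cells chosen for 0 UMIs of group 3 genes. Of 5 tested group 4 and 5 genes 0 passed, with a median of 1.01, and null 2 held the highest level of Hoxd4 (9.58, 7.75, 3.43 and 19.4 CPM) and Hoxb4 (4.29, 5.59, 2.91 and 22.7). Without null 2 the median was -0.95. With cells of at least 5 mesenchymal and under 3 neural UMIs it was 0.14, for the 3 genes tested there.

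Genes of retinoic acid handling bear on Cyp26a1. Of 18 tested 0 passed, 6 had both nulls above both controls and 2 below, near the 28.1% and 14.3% of all tested genes. The median was 0.11 (-0.03 to 0.24 with each library left out). The binding proteins Crabp1 and Crabp2 stood at 363, 533, 832 and 965 CPM and at 345, 325, 549 and 497, with log2 fold changes of 0.91 ± 0.26 and 0.56 ± 0.23 (edgeR adjusted p = 0.406 and 0.512).

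BMP signalling is read from its targets. Of 14 tested 0 passed, 8 had both nulls above both controls and 2 below, where 28.1% and 14.3% of all tested genes did, and the median was 0.79. The inhibitors of differentiation Id3 and Id1 stood at 784, 401, 1099 and 987 CPM and at 388, 202, 635 and 485, so that control 2 was the lowest library for both and control 1 lay between it and the nulls. Their log2 fold changes were 0.73 ± 0.33 and 0.85 ± 0.34 (edgeR adjusted p = 0.540 and 0.510). The antagonist Bmper, named after its values were seen, stood at 5.62, 4.06, 0.728 and 0.826 CPM (-2.71 ± 0.53, edgeR adjusted p = 0.229).

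Neural markers, like the Id genes, were lowest in control 2. With cells of fewer neural UMIs and more mesenchymal ones (215, 610, 311 and 82 cells), the median of the BMP targets was 0.90, and without control 2 it was 0.41. Without control 1, with control 2 as the only control, it was 1.32. In that fit the median was 3.67 for the neural markers and 0.38 for the glial and migratory crest markers. Their part in the BMP targets was not tested. Among 16 BMP and TGF-beta ligands and receptors 0 passed, with a median of -0.26 (0.18 without null 1). Acvr2b and Bmpr1a stood at 98.0, 70.3, 128 and 153 CPM and at 60, 64.6, 52.9 and 56.1.

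FGF signalling was read from 22 feedback and MAPK target genes. None passed, 2 had both nulls above both controls and 8 below, where 28.1% and 14.3% of all tested genes did, and the median was -0.21. Ccnd1 and Ier2 stood at 201, 217, 158 and 163 CPM and at 177, 158, 166 and 153. Il17rd, an inhibitor of FGF signalling, and the ETS factor Etv1, both named after their values were seen, stood at 40.1, 44.6, 24.6 and 16.1 CPM and at 15, 15.4, 6.56 and 3.72, with edgeR adjusted p of 0.320 and 0.291. With cells of fewer neural and more mesenchymal UMIs the median was -0.04. The 5 tested ligands and receptors had a median of -0.46 and 0 calls. That direction rests on single libraries, since without control 1 the median was 0.37 and without null 2 it was -0.11. Fgfr1 stood at 90.0, 87.9, 70.3 and 66.5 CPM, Fgfr2 at 22.1, 20.4, 25.1 and 32.2, and the ligand gene Fgf8 at 0, 0, 0.104 and 0.

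The other signalling lists held 0 calls as well, though without control 1, when 1.80% of all tested genes passed, 2 Notch and 2 endothelin and semaphorin genes did. For 12 hedgehog genes the median was -0.19 (-0.61 without null 2), with Gas1 at 183, 207, 197 and 172 CPM and Smo at 84.4, 72.5, 96.7 and 86.7. The receptor and target Ptch1, named after its values were seen, stood at 50.9, 63.5, 26.1 and 35.1 CPM (log2 fold change -1.02 ± 0.25, edgeR adjusted p = 0.318). For 22 Wnt genes the median was -0.10 (Fzd2 at 198, 220, 272 and 334 CPM, Sfrp1 at 98.8, 83.3, 94.6 and 168), for 10 Notch genes 0.21 (Hes1 at 60.1, 58.4, 42.5 and 51.2, Notch1 at 30.1, 23.6, 20.4 and 32.2) and for 10 endothelin and semaphorin genes -0.00 (Nrp1 at 18.7, 25, 18.7 and 44.6, Plxna2 at 21.1, 23.5, 16.1 and 23.1). With each library left out the medians of these last 3 lists took both signs, from -0.20 to 0.10, from -0.16 to 0.41 and from -0.56 to 0.49.

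Lists of cell state gave 0 calls too. The median was -0.05 for 14 skeletogenic genes, with Col3a1 at 177, 190, 157 and 253 CPM and Col9a1 at 127, 136, 158 and 239. Matn1, a cartilage matrix gene of the list, was at 0 throughout. The median was 0.02 for 20 S phase genes (Dut at 484, 491, 582 and 288 CPM, Rrm2 at 328, 239, 485 and 235), -0.21 for 22 G2 and M phase genes (Hmgb2 at 1543, 1750, 1735 and 1269, Ube2c at 510, 414, 626 and 380) and 0.15 for 15 cell cycle inhibitors (Cdkn1c at 471, 479, 343 and 724, Btg1 at 71.0, 56.5, 74.1 and 91.2). For 10 dissociation stress genes it was 0.07 (Hsp90aa1 at 1935, 1880, 1830 and 1472, Jund at 247, 246, 206 and 388). With each library left out, 4 of these 5 medians took both signs, from -0.65 to 0.15 for the skeletogenic, -0.25 to 0.18 for the S phase, -0.49 to 0.05 for the G2 and M phase and -0.12 to 0.54 for the stress genes.

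Glycolysis and hypoxia genes serve energy supply at low oxygen. Of 21 tested 0 passed, 12 had both nulls above both controls, where 28.1% of all tested genes did, and the median was 0.39. Gapdh and Mif stood at 2932, 2905, 3846 and 3069 CPM and at 1697, 1886, 1993 and 1863. Pfkl, a phosphofructokinase gene named after its values were seen, stood at 91.2, 63.0, 181 and 179 CPM (log2 fold change 1.14 ± 0.25, edgeR adjusted p = 0.291). Without null 1 the median was 0.01.

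Whether the genotype effect in the selected cells differed from that in the other mesenchyme of the same libraries was tested as an interaction with the library as a block. Of 15396 genes, 50 (0.325%) had a higher effect in the selected cells and 87 (0.565%) a lower one at an edgeR adjusted p under 0.05. The counts became 306 and 199 without null 1 and 212 and 221 without null 2, against 69 and 94 without control 1 and 60 and 111 without control 2. Leaving out rule genes, 135 genes were called, and 96 of them reached 20 CPM in 1 population and genotype.

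The other mesenchyme had itself a different composition in the 2 genotypes. Cells with a Hox group 3 gene were 44.7% and 32.5% of it in the controls and 72.6% and 86.5% in the nulls, cells with Emx2 16.8% and 21.8% against 0.246% and 0.0419%, and cells with Gsc or Hand2 32.6% and 38.5% against 17.0% and 8.60%. The test was therefore repeated against the Hox group 3 cells alone, which gave 52 and 36 calls, and 57 of the 137 calls were shared.

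Col9a1 and Igf1 were among the 8 genes named for a higher effect in the selected cells. Col9a1, a cartilage collagen gene, stood at 127, 136, 158 and 239 CPM in the selected cells and at 191, 186, 87.4 and 127 in the others, a difference of log2 fold changes of 1.39 ± 0.07 (SE, edgeR adjusted p = 1.69e-08). The growth factor gene Igf1 stood at 37.3, 56.0, 47.5 and 88.3 CPM against 31.7, 49.8, 16.9 and 34.6 (1.23 ± 0.11, edgeR adjusted p = 2.55e-05). For Col9a1 the nulls were above both controls in the selected cells and below both in the others, and for Igf1 they overlapped in each. Both differences held against the Hox group 3 cells, at 0.98 and 1.53 (edgeR adjusted p = 9.48e-05 and 2.57e-05).

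Dlk1, Plagl1, Igf2 and H19 were named by the same rule. Dlk1 stood at 38.3, 30.8, 99.2 and 49.5 CPM against 200, 168, 207 and 99.5 (difference 1.36 ± 0.08 SE, edgeR adjusted p = 1.74e-07). Plagl1 had a difference of 1.38 (edgeR adjusted p = 0.00126), with 8.92, 7.93, 9.47 and 16.9 CPM against 62.6, 75.8, 28.5 and 62.1. The growth factor gene Igf2 stood at 57.8, 82.9, 48.2 and 121 CPM against 175, 200, 80.9 and 99.8 (1.08, edgeR adjusted p = 0.0118), and its neighbour H19 at 94.3, 156, 125 and 336 against 298, 427, 236 and 403 (0.92, edgeR adjusted p = 0.00243). In the selected cells of null 2, Igf2 and H19 were above every other library. All 4 differences held against the Hox group 3 cells, at 1.54, 1.03, 1.31 and 1.15. DESeq2 did not call Igf2 and H19 (1.21 and 0.98, DESeq2 adjusted p = 0.649 and 0.764). With cells of fewer neural and more mesenchymal UMIs Plagl1 was not called (0.85, edgeR adjusted p = 0.207).

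The remaining 2 are homeobox and forkhead genes. Irx3, of the Iroquois family, stood at 6.28, 6.31, 16.6 and 34.7 CPM in the selected cells, where the genotypes did not overlap, and at 7.60, 10.0, 8.58 and 16.5 in the others (1.52 ± 0.20 SE, edgeR adjusted p = 9.86e-04, and 1.80 against the Hox group 3 cells). Foxd1 stood at 23.6, 20.5, 12.9 and 30.5 CPM against 37.5, 30.5, 12.6 and 13.1 (1.09, edgeR adjusted p = 0.0441), a call that was lost against the Hox group 3 cells (0.87, edgeR adjusted p = 0.137), without the exclusions (0.32, edgeR adjusted p = 0.321) and with DESeq2 (1.23, DESeq2 adjusted p = 0.0550).

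Among the genes with a lower effect in the selected cells was Lypd1, with a difference of -3.69 ± 0.60 (SE, edgeR adjusted p = 0.00470) that became 0.18 with the Foxf1, Emx2, Gsc and Hand2 cells let in. Its call was also lost with DESeq2 (-3.02) and without null 1 (-1.25, edgeR adjusted p = 0.544). Phactr1, an actin and phosphatase regulator, stood at 8.26, 9.83, 4.37 and 6.19 CPM against 6.30, 11.6, 27.1 and 31.7 (-2.54 ± 0.25 SE, edgeR adjusted p = 5.16e-05), and Cdh6, a cadherin of migratory crest, at 13.4, 14.8, 8.85 and 21.1 against 16.4, 23.6, 48.7 and 59.7 (-1.59, edgeR adjusted p = 0.00194). In the other mesenchyme both nulls were above both controls for these 2 genes, while in the selected cells they were below for Phactr1 and overlapped for Cdh6, and both calls held against the Hox group 3 cells (-2.11 and -1.47). Socs2, a brake on growth hormone signalling, stood at 16.8, 18.4, 6.14 and 8.67 CPM against 29.8, 24.3, 24.8 and 33.3 (-1.42, edgeR adjusted p = 0.00145) and had a difference of 0.21 with the 4 kinds of cells let in.

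Other genes with a lower effect lost their call against the Hox group 3 cells. Shox2 had a difference of -2.09 ± 0.38 (SE, edgeR adjusted p = 0.0119; 0.103 against those cells), Tfap2b of -1.58 (0.0167; 0.682) and Gm15050 of -1.43 (0.00266; 0.153). Gm15050 is an antisense transcript within the span of Hoxa3, a gene that the rule excluded. The part of the selection in its difference was not tested. Tfap2b, a transcription factor of the neural crest, stood at 4.13, 4.60, 2.19 and 9.91 CPM in the selected cells and at 22.4, 22.3, 47.8 and 93.0 in the others, and among all mesenchymal cells the share with Sox10 was 1.49%, 2.58%, 11.1% and 17.8%. The part of that makeup in these values was not tested. Without null 1 the difference for Tfap2b was -0.87 (edgeR adjusted p = 0.139).

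Dlx5 was called as well, with a difference of -1.27 (edgeR adjusted p = 0.00716). Its level in the other mesenchyme was 71.3, 59.3, 32.1 and 2.30 CPM, so that null 2 was low in both populations and null 1 lower in the selected cells. The difference was 0.34 without null 1 and 0.40 with the 4 kinds of cells let in, and its DESeq2 value was -0.71. The direction for Dlx5 thus rests on null 1 and on the rule.

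**Figure D5:**
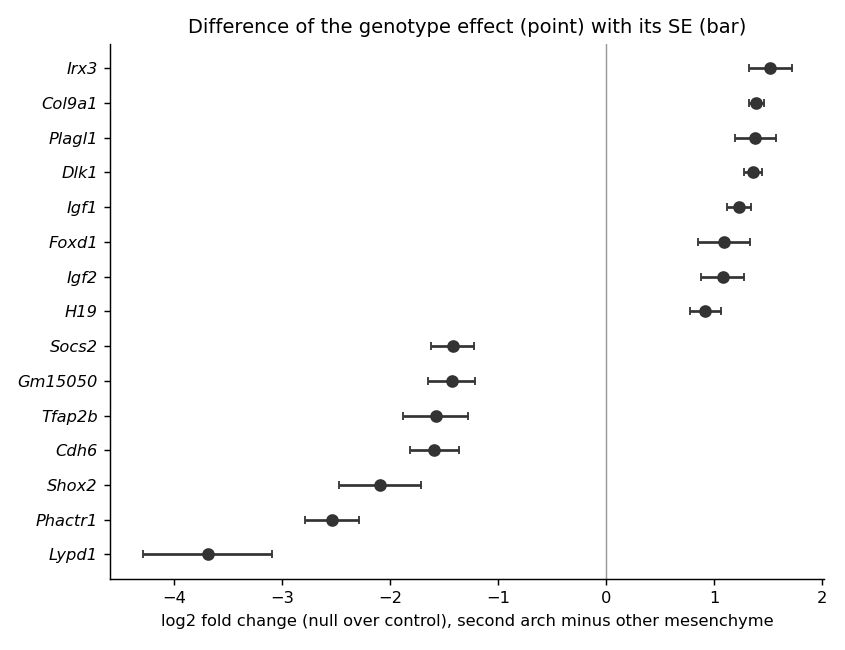
Difference between the log2 fold change (null over control) in the selected PA2 cells and in the other mesenchyme, for 15 named genes (points) with its standard error (bars). It ranged from -3.69 for Lypd1 to 1.52 for Irx3.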

How the data were processed

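Cells were sorted, captured with 10x Chromium kits and sequenced by the authors, who aligned reads to mm10 with Cell Ranger 6.0.1 (per the submitters' processing notes) and deposited UMI counts of 32285 genes per called barcode, without normalization. Singlets were gated in the sort, removal of droplet doublets before deposit is not given in the sources used here, and an alternative left out cells with over 2-fold the median UMIs or 2 UMIs of another type's markers. Counts of the selected cells were summed per library and tested with edgeR 4.0.16 in R 4.3.3 (TMM, filterByExpr, quasi-likelihood, Benjamini-Hochberg), with DESeq2 1.42.0 as an alternative. Levels and shares came from Python 3.11.15. The interaction used sums of selected and other mesenchymal cells with the library as a block. Other alternatives were other size factors, no filter on low counts, a replicate block, each library left out, thinned cells, at least 2 Hoxa2 UMIs, no exclusion of Foxf1, Emx2, Gsc and Hand2, at most 5% mitochondrial UMIs and, added after seeing the data, at least 5 mesenchymal and under 3 neural UMIs.

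Named genes were the 15 highest and 15 lowest by log2 ratio at the library nearest 0, up to 12 called per direction for genotype and 8 for the interaction, all with at least 20 CPM, and for each list its called genes and the 2 with the highest level. Some of the genes so picked are not reported here. Members and lists were chosen with earlier results of these data known. Tested on simulated data with 100 genes changed 2-fold and 100 changed 4-fold, the genotype test recovered 20% and 81% over 11709 genes (3 false of 104 calls) and the interaction 3% and 46% over 11958 (0 false of 49 calls). The simulated spread between libraries depended on the level of a gene alone and was drawn separately for the 2 populations of a library. The recovered shares therefore need not hold for the real counts.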

Additional observations from a re-analysis of the deposited data

Results flagged for a closer look

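For 15 of the named genes the effect of genotype differed between the proximal PA2 cells and the other mesenchyme by the interaction test (edgeR adjusted p under 0.05). The difference of log2 fold changes, PA2 cells minus the others, was negative for Lypd1 (-3.69), Phactr1 (-2.54), Shox2 (-2.09), Cdh6 (-1.59), Tfap2b (-1.58), Gm15050 (-1.43) and Socs2 (-1.42). It was positive for Irx3 (1.52), Col9a1 (1.39), Plagl1 (1.38), Dlk1 (1.36), Igf1 (1.23), Foxd1 (1.09), Igf2 (1.08) and H19 (0.92). Against the cells with a Hox group 3 gene alone, Shox2, Tfap2b, Gm15050 and Foxd1 lost their calls (-1.37, -0.71, -0.81 and 0.87), while the other 11 held. The share of those cells in the other mesenchyme was 44.7% and 32.5% in the controls and 72.6% and 86.5% in the nulls. Gm15050 lies within Hoxa3, which the rule excluded, and the part of the selection in its difference was not tested.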

How the results depend on the processing

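With 2 libraries per genotype, single libraries set many calls, and depth limits genes near 1 CPM in null replicate 2. Fits with a library left out take their spread from 1 genotype alone. Against 0 genes higher and 7 lower in the nulls, DESeq2 called 13 and 36, no filter on low counts 159 and 157, thinned cells 4 and 22, no exclusion of Foxf1, Emx2, Gsc and Hand2 1 and 17, and removal of possible doublets 8 and 32. At least 2 UMIs of Hoxa2 gave 1 higher, as did at most 5% mitochondrial UMIs. Leaving out each library gave 3 to 133 higher and 12 to 97 lower. The 7 genes lower were among the calls of DESeq2, of no filter and of leaving out either control or null replicate 2, and 4 of the 7 without null replicate 1. The other alternatives stayed within 1.5 times.

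A replicate block gave 36 higher and 98 lower, with all 7 calls kept. Same-numbered samples had deviations correlated at 0.0984 over 2 pairs, so the numbers were not taken as pairing.

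For the interaction (50 higher, 87 lower), DESeq2 called 31 and 38, no filter 147 and 186, and the cells with fewer neural and more mesenchymal UMIs 80 and 183. No exclusion gave 88 higher, Hox group 3 cells as the comparator 36 lower, and leaving out each library 60 to 306 higher and 94 to 221 lower. The differences that reversed were Lypd1 (0.18) and Socs2 (0.21) without the exclusions and Dlx5 without them (0.40) and without null replicate 1 (0.34), where leaving out each library gave -1.43 to 0.34. The causes were not tested.

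The log2 ratio of Cyp26a1 to other mesenchyme was 1.72 with thinned cells and 0.60 against the Hoxa2-negative counterparts, from 3.02, and that of Pax9 was 1.45 and 0.91, from 2.35. Mean shares of the PA2 cells in controls and nulls were 11.4% and 13.8% with thinned cells, 5.21% and 3.04% of all cells passing the gene and mitochondrial filter, and 37.0% and 16.7% without the exclusions.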

Other observations

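Gata3 and Gata6 were chosen after their values were seen. Gata3, which acts in arch mesenchyme and the sympathetic lineage, stood at 3.14, 1.62, 14.6 and 25.2 CPM in the proximal PA2 cells (control 1, control 2, null 1, null 2) and at 17.5, 18.3, 19.5 and 20.2 in the other mesenchyme. Its difference of log2 fold changes was 2.87 ± 0.30 (SE, edgeR adjusted p = 1.14e-04), although the genotype effect in the PA2 cells alone did not pass (2.98 ± 0.43, edgeR adjusted p = 0.0869). Gata6 stood at 0.330, 0.541, 1.87 and 4.54 CPM against 11.4, 11.4, 6.05 and 13.9 (2.94, edgeR adjusted p = 0.00459). It was below the 20 CPM of the naming rule throughout, and its values in the PA2 cells rest on few UMIs. Both calls held against the Hox group 3 cells (2.97 and 3.34, edgeR adjusted p = 1.84e-04 and 0.00284) and without the exclusions (2.45 and 3.32, edgeR adjusted p = 0.0195 and 0.0387). Of the other GATA genes tested, Gata2 passed (3.33, edgeR adjusted p = 0.0425) but not against the Hox group 3 cells (0.107), without control 2 (0.410) or with DESeq2 (0.156), and Gata4 and Gata5, from 3 UMIs and 1 UMI in the PA2 cells, did not pass (0.605 and 0.909).

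Pou3f4, the X-linked relative of Pou3f3 and a gene of otic mesenchyme, was also named after its values were seen. It stood at 69.9, 105, 13.8 and 38.0 CPM in the PA2 cells and at 26.5, 35.4, 12.2 and 36.1 in the other mesenchyme, a difference of -1.37 ± 0.13 (SE, edgeR adjusted p = 3.1e-05). In the PA2 cells alone its log2 fold change was -1.95 ± 0.43 (edgeR adjusted p = 0.286), with both nulls below both controls.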
